A study of Mus musculus and Sus scrofa with 12 samples.

Results

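Enhancer-type chromatin around genes of the mouse forelimb was divided into 2 states, according to whether a region called for H3K4me1 also carried H3K27ac. The unit was the H3K4me1 peak, assigned by its midpoint to the protein-coding gene with the nearest transcription start site (TSS) within 500 kb in the RefSeq annotation of GRCm38, and a peak counted as activated when an H3K27ac peak overlapped it by 1 bp or more, and as primed otherwise. Of 69958 H3K4me1 peaks on assembled chromosomes, 68254 had such a gene, and they belonged to 15294 of 21774 mouse coding genes. The share of activated peaks per gene was described for the 4127 genes with at least 5 peaks, which held 47146 of them. A gene's surroundings were called activated at a share of 50% or more, primed at a share of 0, and mixed in between.

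All embryos were wild-type, and every list came from whole forelimbs of littermates, so all cell types of the limb bud were measured together. The lists used were mouse E11.5 H3K27ac, mouse E11.5 H3K4me1 and mouse E11.5 H3K4me3, and, as the nearest comparison, the same 3 modifications in pig forelimbs at day 23 of gestation (D23). The labels give 2 samples for each of the 6 combinations, but each combination was deposited as 1 consensus list of positions without heights, scores or values per sample. No spread between embryos could therefore be computed, no difference below was tested, and the 95% Wilson intervals cover counting error only. Reads per library are unknown, so a peak without H3K27ac is one at which none was called. The forelimb selector Tbx5 had H3K27ac at its start site, and the hindlimb genes Tbx4 and Pitx1 did not.

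H3K4me1 is placed on enhancers and on the shoulders of promoters, often before the element is used. H3K27ac is added by the acetyltransferases p300 and CBP when an enhancer or promoter is in use, and H3K4me3 sits at the start sites of genes. A region with H3K4me1 alone is usually called primed, although neither modification by itself shows that an element drives transcription. In the limb bud at this stage, mesenchyme is being patterned by sonic hedgehog from the posterior margin, by fibroblast growth factors from the apical ridge, and by BMP and WNT signals.

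Sequences of both states follow for loci whose peak counts are described further on. Gas1 encodes a hedgehog co-receptor attached to the cell surface, and its 2 sequences come from neighbouring distal peaks in opposite states. Cdon encodes another hedgehog co-receptor, and Irx1 and Irx3 encode homeodomain transcription factors of the Iroquois family. Each line gives 200 bp of a distal peak on the plus strand, 5′ to 3′, from the RefSeq genome of GRCm38. Windows with H3K27ac were centred on its overlap with the peak, and windows without it on the peak. With H3K27ac, the gene's distal peak with the largest overlap was taken. Without it, the widest was taken at Irx1 and Irx3, and at Gas1 the one nearest to the activated peak. All 5 windows lie outside coding genes. Capitals mark matches, on either strand, to the 4 motifs that were searched: TAATTA (homeodomain core), CATCTG (an E-box of bHLH factors such as Twist1), TGGGTGGTC (GLI) and CGCGCG (CpG-rich).
Gas1, with H3K27ac, chr13:60011105-60011304: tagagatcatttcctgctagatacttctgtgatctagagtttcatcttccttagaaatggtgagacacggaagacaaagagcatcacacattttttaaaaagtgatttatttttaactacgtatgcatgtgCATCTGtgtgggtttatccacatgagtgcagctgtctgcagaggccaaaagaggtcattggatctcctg
Gas1, without H3K27ac, chr13:60035096-60035295: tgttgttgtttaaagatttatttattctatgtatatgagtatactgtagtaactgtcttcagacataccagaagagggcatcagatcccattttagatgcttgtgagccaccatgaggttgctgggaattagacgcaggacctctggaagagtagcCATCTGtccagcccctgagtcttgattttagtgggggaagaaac
Cdon, with H3K27ac, chr9:35361253-35361452: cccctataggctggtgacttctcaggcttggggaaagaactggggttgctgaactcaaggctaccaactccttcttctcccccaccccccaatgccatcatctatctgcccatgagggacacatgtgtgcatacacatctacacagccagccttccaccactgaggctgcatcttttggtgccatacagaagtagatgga
Irx1, without H3K27ac, chr13:71616779-71616978: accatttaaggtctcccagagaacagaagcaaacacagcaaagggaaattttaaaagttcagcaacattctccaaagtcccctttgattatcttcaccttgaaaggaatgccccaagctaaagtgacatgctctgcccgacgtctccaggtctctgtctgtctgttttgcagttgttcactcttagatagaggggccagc
Irx3, without H3K27ac, chr8:91972240-91972439: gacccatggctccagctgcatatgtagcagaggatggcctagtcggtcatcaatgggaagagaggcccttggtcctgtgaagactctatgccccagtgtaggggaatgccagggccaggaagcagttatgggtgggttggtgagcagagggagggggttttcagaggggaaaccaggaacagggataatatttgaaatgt

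The activated Gas1 window belongs to a peak of 6441 bp, 166 kb from the TSS, of which 6338 bp were covered by H3K27ac. The primed Gas1 window belongs to a peak of 1607 bp, 142 kb from the TSS. Both hold a single CATCTG, and the other 3 windows hold none of the motifs. The Irx1 peak was 8936 bp wide and the Irx3 peak 5881 bp, and neither was touched by H3K27ac.

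Sequence composition separated the states only slightly. Among distal peaks, which overlapped neither 1 kb on each side of an annotated TSS nor an H3K4me3 peak, the median GC content was 46.0% with H3K27ac and 44.8% without it. In the central 300 bp, CATCTG was found in 25.01% of 4723 distal activated peaks and 24.94% of 43881 distal primed peaks, against 24.94% of all distal peaks. TAATTA was found in 8.11% (95% interval 7.36 to 8.92) of distal activated and 9.93% (9.66 to 10.2) of distal primed peaks, against 9.76% of all. The motif also went with composition: in the lowest of 4 GC classes of distal windows, TAATTA was present in 15.8% of activated and 18.6% of primed peaks, in the next in 10.2% and 10.8%, in the one after in 7.31% and 6.88%, and in the highest in 3.24% and 3.69%. TGGGTGGTC was too rare to compare, at 12 activated and 131 primed distal peaks (0.254% and 0.299%). CGCGCG was also rare at distal peaks, at 7 activated and 150 primed ones. These are 0.148% (0.072 to 0.306) and 0.342% (0.291 to 0.401), and the intervals overlap. At peaks near a TSS or on H3K4me3 it was found in 0.581% of activated and 1.67% of primed peaks. From the lowest to the highest GC class, 7.001%, 8.81%, 10.7% and 12.2% of distal peaks carried H3K27ac.

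Most H3K4me1 regions of the E11.5 forelimb carried no H3K27ac. Of the 69958 peaks, 14193 overlapped it, which is 20.3% (95% interval 19.99 to 20.59), and 55765 did not. The share differed with position. Peaks at a TSS window were activated in 43.0% of cases (42.3 to 43.7), those on H3K4me3 in 57.0% (56.2 to 57.7), and the 48604 distal peaks in 9.72% (9.46 to 9.98).

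The share did not simply fall with distance from the TSS. Peaks whose midpoint lay under 1 kb from the nearest coding TSS were activated in 32.6% of cases (31.1 to 34.0), whereas at 1 to 5 kb 53.1% were (52.2 to 53.9). Beyond, the share was 14.1% at 5 to 20 kb, 12.7% at 20 to 50 kb, 11.0% at 50 to 100 kb, 9.10% at 100 to 250 kb and 8.02% at 250 to 500 kb. The dip at the TSS was present among peaks that overlapped H3K4me3, where 42.4% of 2789 peaks under 1 kb and 66.0% of 9685 peaks at 1 to 5 kb were activated. Without H3K4me3 the values were 12.2% of 1345 peaks and 13.7% of 3177 peaks, and their intervals (10.6 to 14.1 and 12.5 to 14.9) overlap. Distal peaks alone were activated in 11.6% of cases at 5 to 20 kb (11.0 to 12.2) and in 7.27% at 250 to 500 kb (6.54 to 8.09).

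**Figure D1:**
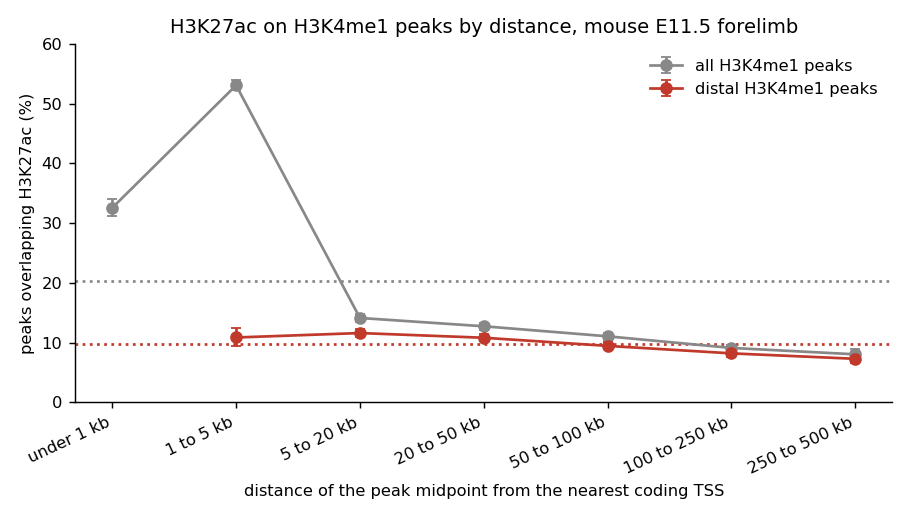
Share of H3K4me1 peaks that overlapped H3K27ac (y axis, percent) by distance of the peak midpoint from the nearest coding TSS (x axis, 7 classes), for all assigned peaks (grey) and distal peaks (red). Bars are 95% Wilson intervals and dotted lines the shares over all peaks, 20.3%, and all distal peaks, 9.72%; the grey curve is highest at 1 to 5 kb, at 53.1%, and the red one lies between 7.27% and 11.6%.

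Where H3K27ac met an H3K4me1 peak, it usually covered most of it. The median share of an activated peak's length under H3K27ac was 64.0% (quartiles 34.5% and 92.5%), and 334 of the 14193 had under 200 bp covered. Distal activated peaks were covered by a median of 83.9%, and activated peaks at a TSS or H3K4me3 by 52.3%. The coverage also ran the other way: 7623 of 20860 H3K27ac peaks (36.5%) lay on no H3K4me1 peak. Among H3K27ac peaks at a TSS or on H3K4me3 22.2% lay on none, and among the 10088 distal ones 51.9% did. A gene can therefore be acetylated nearby and still have primed H3K4me1 peaks only. Primed peaks lay a median of 32.3 kb from the nearest H3K27ac peak, and 1009 of the 55765 lay within 1 kb of one.

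Wider distal H3K4me1 peaks were more often activated, at 6.80% in the narrowest of 4 width classes, 9.79% and 11.099% in the next ones and 11.2% in the widest. Whether a distal peak lay in an exon, an intron or outside coding genes went with almost no difference, at 9.83%, 10.0% and 9.44%. Neighbouring distal peaks tended to share their state when they were close. When 2 lay less than 2 kb apart, the right one was activated in 41.2% of 306 pairs with an activated left one and in 4.84% of 3077 pairs with a primed left one. At 10 to 25 kb the values were 11.3% and 9.30%. Both peaks of a close pair can lie under the same H3K27ac peak, and 104 distal H3K27ac peaks lay on 2 or more H3K4me1 peaks. How many of the 306 pairs were of this kind was not counted. Because close neighbours tended to share their state, intervals on pooled peaks, which count them as independent, are too narrow.

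Long stretches of the genome held primed peaks only. Activated peaks came in 9417 runs along the chromosomes, of which 68.9% were a single peak, and the longest held 18 peaks. Primed peaks came in 9411 runs with a median of 4 peaks, and 465 of these held 20 or more. The longest primed run had 83 consecutive H3K4me1 peaks over 2695 kb (chr13:70653343-73348119). Irx1 was the nearest gene of 32 of them, the protease gene Adamts16 of 19, and Irx2 and Irx4, from the same Iroquois cluster as Irx1, of 14 and 11. The next run, of 81 peaks over 1723 kb (chr13:30652249-32375034), held the forkhead genes Foxc1, Foxf2 and Foxq1, with 22, 11 and 11 peaks. Another run, of 80 peaks (chr13:101803413-103644605) held the kinase gene Mast4 with 35 peaks and Cd180, a receptor of immune cells, with 22. The longest activated run, of 18 peaks over 617 kb (chr7:12420372-13037070), lay among zinc finger genes such as Zscan22, Zbtb45 and Zfp324, and none of its peaks was distal.

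Per gene, the median share of activated peaks was 14.3% (quartiles 0% and 23.1%) over the 4127 genes with at least 5 peaks. Activated surroundings were found at 178 genes, 4.31% of those described, and primed surroundings at 1048 genes, 25.4%. With 50% of a peak covered the numbers were 56 and 1658, and with H3K27ac peaks wider than their median 67 and 1728. With distal peaks alone they were 40 and 1331, of 3046 genes with at least 5 distal peaks. Genes with fewer peaks had higher shares: pooled over genes, 48.0% of peaks were activated where a gene had 1 peak, 28.9% at 2 to 4, 18.1% at 5 to 9, 14.1% at 10 to 19 and 12.3% at 20 or more. The classes follow from this in part. Of the 178 activated genes 18 had 10 or more peaks, and 1 had 20 or more, whereas 283 of the primed genes had 10 or more and 29 had 20 or more. A primed gene with 5 peaks has a 95% upper bound of 43.4%, so a share of 0 says little there. Even at Mast4, the primed gene with most peaks (35), the bound was 9.89%, above the 9.72% of all distal peaks. At the boundary, 63 genes had exactly 50%, and the highest share below it was 48.5%, at Ubash3b. At the other boundary, 1218 genes missed the primed class by 1 activated peak.

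**Figure D2:**
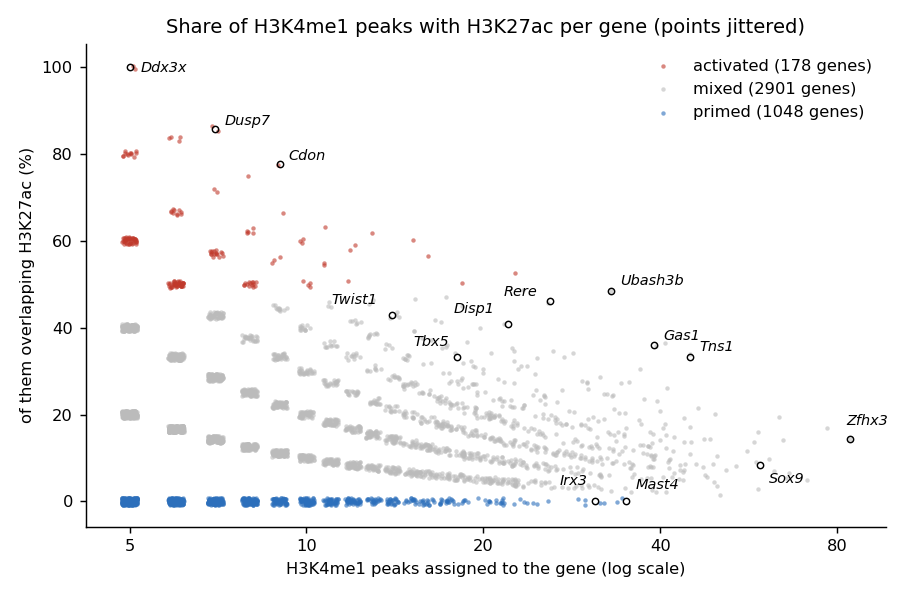
Share of a gene's H3K4me1 peaks that overlapped H3K27ac (y axis, percent) against its number of H3K4me1 peaks (x axis, log scale), 1 point per gene with at least 5 peaks; points are jittered and circles mark the named genes. High shares occur at genes with few peaks (Ddx3x, 5 of 5), while Ubash3b (16 of 33), Gas1 (14 of 39) and Tns1 (15 of 45) stand high among genes with many peaks, and Irx3 and Mast4 lie at 0.

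The 15 genes with the highest lower bound of the share had between 5 and 9 peaks each. Ddx3x (chrX:13280496-13293988), an RNA helicase, and Igf2 (chr7:142650768-142666816), an imprinted fetal growth factor, had 5 of 5 peaks activated, with a lower bound of 56.6%. Dusp7, a phosphatase that inactivates MAP kinases, and Ptma, which encodes prothymosin alpha, had 6 of 7 (48.7 to 97.4). Cdon (chr9:35421528-35507652) had 7 of 9 (45.3 to 93.7). Metap2, an aminopeptidase that trims the first methionine of proteins, had 5 of 6, as did Ccl28, a chemokine, Tex44 and Ttc23l. Ddit4, an inhibitor of mTORC1, had 6 of 8, and C2cd4a, Calml4, Cfap126, Cfap161 and Glyctk had 4 of 5 each. None of the Ddx3x peaks was distal, and both distal peaks of Igf2 were activated. At Dusp7 all 4 distal peaks were, and at Cdon 6 of 8.

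Some of these genes had no acetylated start site of their own. Tex44 and Ttc23l carried neither H3K27ac nor H3K4me3 at the TSS, and Ccl28 carried H3K4me3 alone. Tex44 and Ptma lie on the same stretch of chromosome 1, with Tex44 at 86426329-86428049 and Ptma at 86526557-86530712. The nearest start site need not be the one an element acts on, and the lists hold no measure of contact between them.

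Counted by number of activated peaks rather than share, the leading gene was Ubash3b (chr9:41010760-41161692), which encodes a tyrosine phosphatase, with 16 of 33 peaks activated (48.5%, 32.5 to 64.8). Gm40514, the next coding gene along the chromosome, 749 kb away, had 15 of 41, so that the pair held 31 activated peaks of 74. Gm40514 had no H3K27ac and no H3K4me3 at its TSS. Tns1, which encodes the focal adhesion protein tensin 1, had 15 of 45, and Gas1 (chr13:60174405-60177535) 14 of 39. Pde4d, a cyclic AMP phosphodiesterase, had 13 of 79. The transcription factor genes Zfhx3 and Tcf4 had 12 of 84 and 12 of 62, and Rere, a nuclear receptor coregulator, had 12 of 26. 4930558K02Rik had 12 of 23 and was the activated gene with the most peaks, and Zfp516 had 11 of 41. The gene with most peaks of all, Zfhx3, had a share of 14.3%, the same as the median gene. At Gas1 12 of the activated peaks were distal, out of 29 distal peaks, a share of 41.4% (25.5 to 59.3) against 9.72% of all distal peaks. Distal peaks of Ubash3b were activated in 8 of 21 cases and those of Gm40514 in 3 of 25.

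The 15 genes with the lowest upper bound had between 25 and 57 peaks each, and 9 of them had no activated one. Mast4 had 0 of 35 peaks activated, with an upper bound of 9.89%, and Cdh13, which encodes T-cadherin, 0 of 34. Mgmt, a DNA repair methyltransferase, had 1 of 50. Irx1 (chr13:71958232-71963723) had 0 of 32 and Irx3 (chr8:91798511-91801654) 0 of 31, with upper bounds of 10.7% and 11.0%. Ofcc1, Tcerg1l and Trabd2b, which encodes a metalloprotease that cleaves WNT proteins, had 0 of 29 each. The cell adhesion genes Ntm, Opcml and Cdh4 had 2 of 57, 1 of 40 and 0 of 26. Robo1, a receptor for Slit guidance cues, had 2 of 50, Ptprd, a receptor phosphatase of neurons, 1 of 38, and BC052040 1 of 39. Angpt1, a ligand of the endothelial receptor TIE2, had 0 of 25.

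Primed surroundings did not always mean a silent start site. Irx3 and Mast4 had H3K27ac at the TSS, although none of the H3K27ac peaks assigned to them, 2 and 3, met H3K4me1. Irx1, Trabd2b and Angpt1 had H3K4me3 at the TSS and no H3K27ac peak assigned at all. Ofcc1 had neither H3K4me3 nor H3K27ac there, yet 27 distal H3K4me1 peaks.

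**Figure D3:**
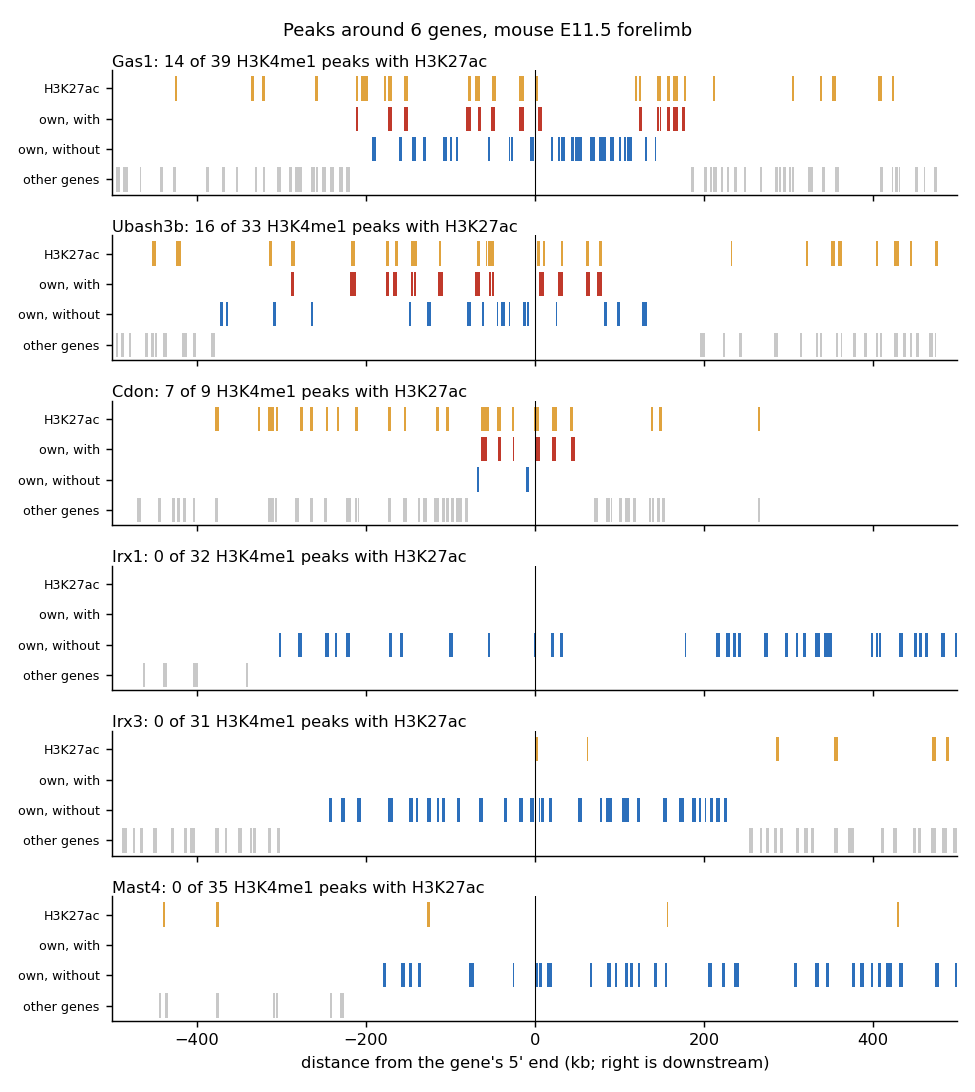
Peaks within 500 kb of the 5′ end of 6 genes (x axis, distance in kb with downstream to the right). Rows show, from the top, H3K27ac peaks, the gene's own H3K4me1 peaks with and without H3K27ac, and H3K4me1 peaks assigned to other genes; peaks narrower than 2 kb are drawn 2 kb wide. Activated peaks of Gas1 and Ubash3b lie on both sides of the gene among primed ones, whereas the window of Irx1 holds no H3K27ac peak and that of Irx3 holds 6, all away from its own H3K4me1 peaks.

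H3K4me3, which the rule did not use, differed less between the classes than H3K27ac did at the same start sites. H3K4me3 was found at the TSS of 168 of 178 activated genes (94.4%) and 800 of 1048 primed genes (76.3%), with 87.1% over all 4127. H3K27ac was found at the TSS of 154 activated (86.5%) and 134 primed genes (12.8%), with 57.1% over all. Since a peak at the TSS can itself be one of those counted, this last difference follows in part from the rule. H3K4me1 was found at the TSS of 78.7% of activated and 63.7% of primed genes, with 72.3% over all. An H3K27ac peak off every H3K4me1 peak was nearest to 95 activated genes (53.4%) and 448 primed genes (42.7%), with 53.8% over all 4127. Counting any assigned H3K27ac peak, 85.3% of all genes had one.

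The primed genes with most H3K27ac peaks off H3K4me1 were Nucb2 with 8 H3K27ac peaks and 0 of 14 H3K4me1 peaks activated, and Sox2, a pluripotency and neural factor, with 5 and 0 of 22. Gpatch2 also had 5, and Hs3st4, a heparan sulfate sulfotransferase, had 4. At the other extreme, 248 primed genes had no H3K4me3 at the TSS. Those with most H3K4me1 peaks were Ofcc1 with 29, Arhgap15, which encodes a GTPase-activating protein, with 24, Cd180 with 22, and Gadl1, Gm826 and Mc2r, the receptor for adrenocorticotropic hormone, with 21 each. These genes were chosen after their values were seen.

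Activated genes lay in more crowded parts of the genome. The median territory, the distance between the coding start sites on either side, was 199 kb for activated, 396 kb for mixed and 332 kb for primed genes, and the median distance of their peaks from the TSS was 19.2, 44.8 and 38.9 kb. From the narrowest to the widest of 5 classes of territory, 10.8%, 6.30%, 2.91%, 1.09% and 0.484% of genes were activated, whereas 28.3%, 28.4%, 22.7%, 24.0% and 23.6% were primed. The number of peaks per gene went with this, with a median of 6 in the narrowest and 17 in the widest class, and the ratio of the observed share to that of peaks at like distance and width was 0.99, 0.97, 0.96, 0.95 and 0.85. Peak widths hardly differed, with medians of 3373, 3473 and 3431 bp for activated, mixed and primed genes.

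**Figure D4:**
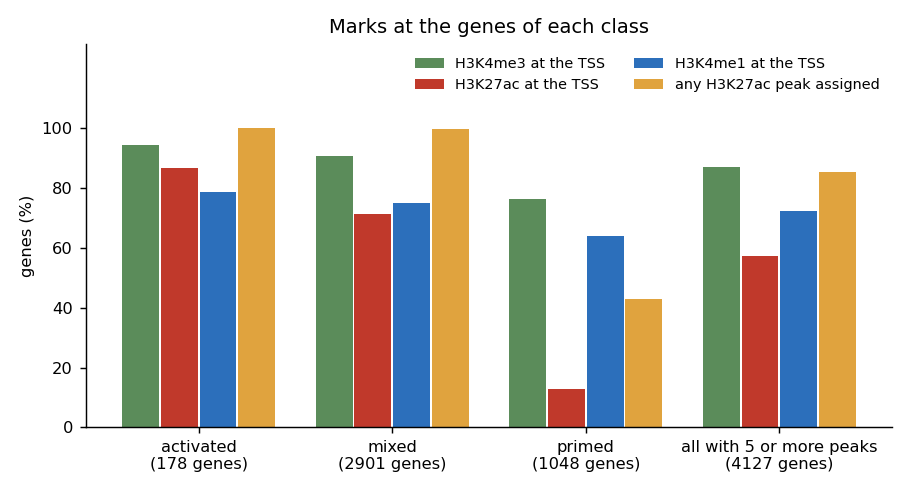
Percent of genes (y axis, from 0) with H3K4me3, H3K27ac or H3K4me1 within 1 kb of a TSS, and with any H3K27ac peak nearest to them, in activated, mixed and primed genes and in all 4127 (x axis). H3K4me3 is present at 94.4% of activated and 76.3% of primed genes, and H3K27ac at the TSS at 86.5% and 12.8%. Any assigned H3K27ac is at 100% of activated and 99.7% of mixed genes, which follows mostly from the rule. H3K27ac peaks were assigned by their own midpoints, so one that overlaps a gene's H3K4me1 peak can belong to a neighbour.

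Because the share depends on distance and width, gene lists were set against the share of all assigned H3K4me1 peaks in the same distance and width classes, called the matched share here. The hedgehog pathway had the highest ratio to it of the 20 lists. Of its 198 peaks 51 were activated, 25.8% (20.2 to 32.3), against a matched share of 16.2%. The median share of its 9 members with at least 5 peaks was 17.4%, against 14.3% over all genes, with 1 of 9 members activated and 2 primed, where 4.31% and 25.4% of all genes were. At distal peaks 31 of 150 were activated, 20.7% (14.96 to 27.84), against 9.72% of all distal peaks. Gas1 gave 12 of these 31, and without it the distal share was 15.7%.

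Gas1, Disp1 and Cdon held 30 of the 51 activated peaks of the pathway, and its ligand genes held none. The co-receptor genes Cdon, Gas1 and Boc had 7 of 9, 14 of 39 and 3 of 13. Disp1, which releases the lipid-modified ligand from producing cells, had 9 of 22, of which 5 of 17 were distal. Sufu, which restrains the GLI factors, had 3 of 4, and Smo, the signal-transducing receptor, 2 of 4. The transcriptional effectors Gli2 and Gli3 had 4 of 23 and 4 of 34, and Gli1 1 of 1. Hhip, which binds and sequesters the ligands, had 1 of 20. Ptch1, the receptor and itself a target of the pathway, had 0 of 10 although H3K27ac lay at its TSS. Among the ligands Ihh had 0 of 7 and Shh 0 of 2, and neither had H3K27ac at the TSS. Lmbr1, whose intron holds the limb enhancer of Shh, had 1 of 4. Of 68 H3K27ac peaks assigned to the pathway 19 lay off H3K4me1, with 36.5% over all H3K27ac peaks.

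Factors of the limb mesenchyme had a lower share than the hedgehog genes. Of 607 peaks at 39 genes 69 were activated, 11.4% (9.08 to 14.1), against a matched share of 13.3%, and of 486 distal peaks 31 were, 6.38% (4.53 to 8.91). The median share of the 35 members with at least 5 peaks was 10.5%, against 14.3% over all genes. None was activated and 7 of the 35 were primed, with 25.4% over all genes. H3K27ac lay at the TSS of 36 of the 39 genes, with 52.7% over all genes with an H3K4me1 peak. Of their 113 H3K27ac peaks 46 were off H3K4me1, with 36.5% over all H3K27ac peaks.

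Within the list, the highest shares with at least 5 peaks were at Twist1, a bHLH factor of mesenchyme, with 6 of 14, and Hic1, a zinc finger repressor, with 3 of 7, all 3 of them distal. Tbx5, the T-box gene needed to start the forelimb, had 6 of 18. Shox2, needed for the proximal limb segment, had 4 of 14, and Lmx1b, which specifies dorsal identity, 5 of 18, none of these 5 distal. Pkdcc, a secreted tyrosine kinase, had 5 of 27. Tbx3 and Hand2, both active in posterior mesenchyme, had 2 of 45 and 2 of 19, and Sall1 had 4 of 46. Primed members included Irx3 with 31 peaks, Foxc1 with 22, Lhx2 with 10, Tfap2b with 9, Alx1 with 7 and Prrx2 with 5. Of these, all but Alx1 had H3K27ac at the TSS. Irx5, the neighbour of Irx3, had 2 of 32.

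WNT genes had 68 of 409 peaks activated, 16.6% (13.3 to 20.5), against a matched share of 14.5%, and 11.2% of distal peaks. Tcf7l2 and Lef1, transcription factors that bind beta-catenin, had 9 of 37 and 5 of 25. Fzd2, a WNT receptor, had 4 of 6 and was the activated member. Sfrp2, a secreted WNT modulator, had 5 of 23, and the ligand gene Wnt5a 3 of 35. FGF genes had 14.5% of 220 peaks activated, against 13.9% matched, and 5.33% of distal peaks (2.83 to 9.81). Fgfr1, the receptor of the mesenchyme, had 5 of 10, none of the 5 distal. The other receptor genes Fgfr2, Fgfr3 and Fgfrl1 had 4 of 32, 0 of 5 and 0 of 3. Of the ligand genes, Fgf18 had 2 of 12, both distal, Fgf10 2 of 20 and Fgf9 2 of 23. Fgf8 and Fgf4 had 0 of 3 each, and Fgf17 0 of 1. BMP genes had 14.5% of 269, against 15.1% matched, and 6.42% of distal peaks, with 8 of 31 at the inhibitory Smad7 and 1 of 30 at the ligand gene Bmp2.

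Cartilage genes had 10.8% of 324 peaks activated, against 13.8% matched. Col2a1, the main collagen of cartilage, had 3 of 6, and its regulators Sox9, Sox5 and Sox6 had 5 of 59, 8 of 58 and 7 of 48. Genes of the proximal limb and of retinoid metabolism had 12.2% of 196 peaks, against 13.7% matched. Among them Cyp26b1, which degrades retinoic acid, had 4 of 22, Meis1 3 of 43, and Aldh1a2, which makes retinoic acid, 0 of 10. Notch genes had 11.2% of 98 (16.8% matched), Eph and ephrin genes 12.2% of 181 (12.5%) and hindlimb selectors 8.57% of 35 (12.6%). In the last list Pitx1, which sets hindlimb identity, had 0 of 8, Isl1 1 of 15 and Tbx4 2 of 11. None of them had H3K27ac at the TSS, but Tbx4 had 3 H3K27ac peaks assigned, 2 of them distal. The posterior HoxA and HoxD genes could not be described by share, because none had 5 H3K4me1 peaks. In all they had 7, of which 3 were activated, while all 5 members with a peak had H3K27ac at the TSS, with 52.7% over all genes with a peak.

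**Figure D5:**
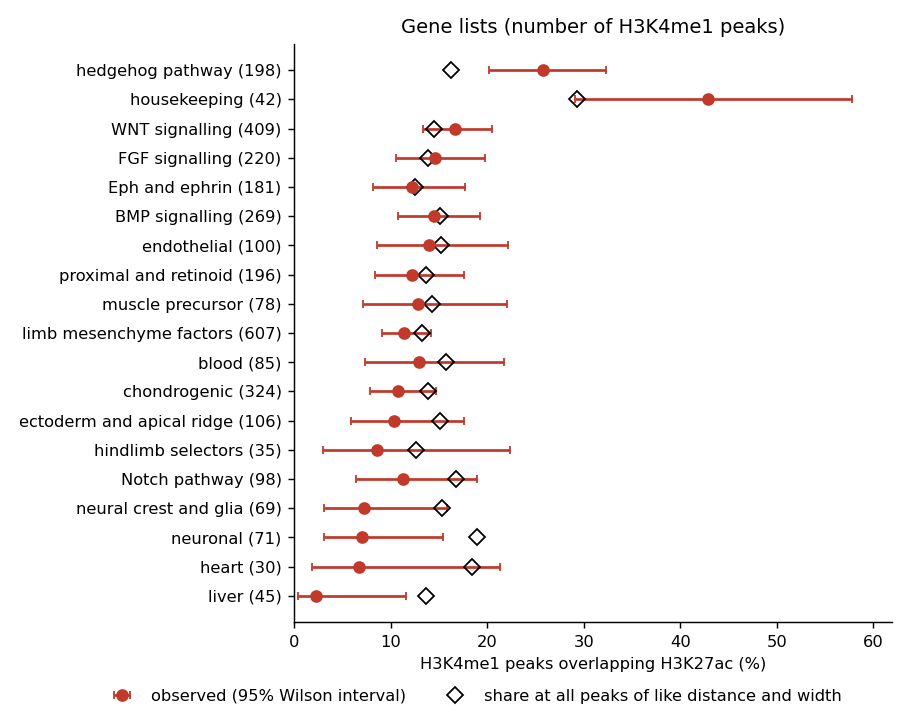
Percent of each list's H3K4me1 peaks that overlapped H3K27ac (x axis; red points, with 95% Wilson intervals) and the share of all assigned peaks of like distance and width (open diamonds), for 19 gene lists with their number of peaks, ordered by the ratio of both. The hedgehog pathway lies at 25.8% against 16.2%, and neuronal and liver genes at 7.04% and 2.22% against 18.96% and 13.7%; the posterior Hox list, with 7 peaks, is left out.

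Housekeeping genes had 42.9% of 42 peaks activated (29.1 to 57.8), against a matched share of 29.3%, which lies within that interval. Of their 14 distal peaks 1 was activated, 7.14% (1.27 to 31.5), so nearly all their activated peaks lay at a TSS or on H3K4me3. H3K27ac lay at the TSS of 13 of 13 genes with a peak, with 52.7% over all genes with a peak. The lists for other cell types of the limb and for tissues outside it all lay below their matched shares. The matched share lay outside the interval for the neuronal and liver lists and inside it for the other 6. Endothelial genes had 14.0% of 100 peaks (15.2% matched), with 5 of 23 at Cdh5, a cadherin of vessel walls, all 5 distal, and 0 of 10 at the receptor gene Kdr. Muscle precursor genes had 12.8% of 78 (14.3%), blood genes 12.9% of 85 (15.8%) and ectoderm and apical ridge genes 10.4% of 106 (15.1%). Neural crest and glial genes had 7.25% of 69 peaks (15.4%) and neuronal genes 7.04% of 71 (18.96%), with 0 of 17 at the neuronal splicing factor gene Rbfox3. Heart genes had 6.67% of 30 (18.4%) and liver genes 2.22% of 45 (13.7%), with 0 of 15 at Foxa2. At distal peaks the order was another: 12.2% were activated at endothelial, 10.1% at blood, 8.70% at heart, 8.33% at neuronal, 7.94% at muscle precursor, 7.69% at neural crest and glial, 5.13% at ectoderm and apical ridge and 0% at liver genes, on 23 to 82 distal peaks each. At limb mesenchyme factors 6.38% were, and over all distal peaks 9.72%. The intervals of the endothelial and blood values, 6.76 to 21.0 and 5.00 to 19.5, both hold 9.72%. With 1 member left out in turn, the endothelial value ran from 8.20% (without Cdh5) to 13.7% (without Kdr). The blood value ran from 7.14% (without Ptprc) to 13.9% (without Runx1). The part of each cell type in the shares of a whole limb was not tested.

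The share of H3K4me1 peaks with H3K27ac was 20.3% in mouse forelimbs at E11.5 and 18.2% of 102421 peaks in pig forelimbs at D23. At distal peaks the order was reversed, at 9.72% in mouse and 12.2% of 81436 peaks in pig. Activated genes were 4.31% of mouse and 4.15% of the 5730 pig genes with at least 5 peaks, and primed genes 25.4% and 23.8%. For the 3077 genes of the same symbol with at least 5 peaks in both species, the Spearman correlation of the share was 0.339, and that of the number of peaks 0.657. These correlations are across genes, which are not independent replicates, and carry no test. The median pig share was 28.6% for the 124 genes activated in mouse and 9.09% for the 725 genes primed in mouse, against 14.3% over all 3077. Primed surroundings in pig were found at 12 of the mouse-activated genes (9.68%) and at 245 of the mouse-primed genes (33.8%), with 17.7% over all 3077. Activated surroundings in pig were found at 18 (14.5%) and 9 (1.24%), with 3.41% over all. The pig H3K4me1 list rests on 1 biological replicate per the series' design text, although the labels name 2 samples.

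Cdon was among the 18 genes activated in both species, with 7 of 9 peaks in mouse and 7 of 14 in pig. So were Fzd2 (4 of 6 and 5 of 8), Dusp7 (6 of 7 and 4 of 8), Bcl9, a coactivator of beta-catenin (6 of 10 and 7 of 13), Src, a tyrosine kinase (5 of 8 and 5 of 10), and Hmgb1, a chromatin protein (6 of 10 and 6 of 10). Gas1, mixed in both, had 14 of 39 in mouse and 15 of 55 in pig. Primed in both were Trabd2b (29 and 28 peaks), Angpt1 (25 and 31), Arhgap15 (24 and 14), Gadl1 (21 and 19), Rbfox3 (17 and 19) and Foxf1, a forkhead factor of visceral mesenchyme (16 and 25). Irx1 had 0 of 32 in mouse and 2 of 59 in pig, and Irx3 0 of 31 and 3 of 25. Mast4 differed more, with 0 of 35 in mouse and 9 of 56 in pig, where 16.1% were activated.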

How the data were processed

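Forelimb chromatin was profiled by ChIPmentation, in which a transposase adds sequencing adapters to immunoprecipitated chromatin. Per the series' design text, libraries were cropped to 50 bp reads, alignment of the mouse reads was to GRCm38/mm10, and broad peaks passed an irreproducible discovery rate of 0.01. The submitters' processing notes name Bowtie2 2.3.5, SAMtools 1.9, Trimmomatic 0.39, deepTools 3.5 and FastQC 0.11.9. Which caller made the peaks is not given in the labels or design text. The deposited lists give chromosome, start and end only, so depth and peak height are unknown.

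From these positions, overlaps, gene assignments and shares were computed with Python 3.11.15, numpy 2.4.6, pandas 2.3.3 and scipy 1.17.1. Peaks off assembled chromosomes (4 for H3K4me1 and 15 for H3K27ac) were left out. All annotated start sites of coding transcripts served for assignment. Matched shares came from 7 distance classes by 4 width classes. The code was tested on simulated data. Named genes were the 15 with the highest lower bound and the 15 with the lowest upper bound of the Wilson interval, the 10 with most activated peaks, and list members. The plan was to name the 3 highest and lowest members of each list, and further ones where an account needed them. The text names only some of these, and none for several lists, so named members need not be the extremes of their list. Counts of named genes below include members that the text does not name. Genes activated or primed in both species and primed genes with H3K27ac off H3K4me1 were picked after their values were seen. The members and the 20 gene lists were chosen with earlier results of these data known. One member of these lists is not reported here by name.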

Additional observations from a re-analysis of the deposited data

How the results depend on the processing

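The class counts rest on how overlap and peaks are counted. Over all peaks, the share with H3K27ac was 20.6% with H3K4me1 peaks within 1 kb merged, 19.8% with 200 bp of overlap required, 12.5% with 50% of the peak covered, 9.72% for distal peaks, 12.9% with H3K27ac peaks wider than their median only and 19.01% with H3K4me1 peaks wider than their median only. In the same order from 50% coverage on, activated genes numbered 56 of 4127, 40 of 3046, 67 of 4127 and 75 of 2070, against 178 of 4127. Primed genes numbered 1658 of 4127 with 50% coverage and 1728 of 4127 with wide H3K27ac peaks, against 1048 of 4127. With wide H3K4me1 peaks they numbered 638, but of only 2070 genes with at least 5 peaks. The median share per gene was 7.69% with 50% coverage, 6.67% for distal peaks, 7.41% with wide H3K27ac peaks, and 16.7% with a limit of 100 kb. With at least 3 peaks per gene it was 16.7%, with 822 activated and 2250 primed of 7002 genes. With at least 10 it was 11.11%, with 18 and 283 of 1774. Distal peaks alone left 29 of the 178 activated genes activated (16.3%) and 734 of the 1048 primed genes primed (70.0%). A primed gene has no activated distal peak, so it could leave its class only by having fewer than 5 distal peaks. Activated genes could leave that way too, as Ddx3x did with 0 distal peaks and Igf2 with 2. The shares of 152 of 201 named genes stayed within their intervals with distal peaks alone, as did those of 9 of 20 lists, and all 202 named genes did with merged peaks. Adding the distal state to the matching, chosen after seeing the data, gave a ratio of observed to matched share of 1.54 in place of 1.59 for the hedgehog list, 1.24 in place of 1.46 for housekeeping genes and 0.81 in place of 0.86 for limb mesenchyme. For 3 lists it crossed 1: FGF had 0.997 in place of 1.05, BMP 1.02 in place of 0.96, and Eph and ephrin 1.02 in place of 0.97. Leaving out single members, also chosen afterwards, moved the hedgehog share between 23.3% (without Gas1) and 28.7% (without Gli3). No paired analysis was possible because each combination of species and modification is 1 consensus list, and for the same reason no sample could be left out in turn.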

Other observations

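Gene families taken by name showed a spread of shares that the lists above did not cover. Potassium channel genes had primed surroundings at 19 of 35 members with at least 5 peaks (54.3%), cadherins at 8 of 13 (61.5%), forkhead genes at 9 of 20 (45.0%) and homeobox genes at 22 of 67 (32.8%), with 25.4% over all genes. Pooled over peaks, 8.22% were activated at potassium channel genes (17.4% matched on distance and width), 8.03% at cadherins (14.2%), 10.1% at forkhead genes (16.0%) and 10.9% at homeobox genes (15.9%). Cytosolic ribosomal protein genes had 38.0% of 266 peaks activated (24.5%), mitochondrial ribosomal protein genes 37.5% of 160 (28.6%), Zfp zinc finger genes 34.7% of 1052 (24.2%) and cyclin and CDK genes 31.4% of 159 (21.4%). Of members with at least 5 peaks, in that order, 0 of 15, 1 of 11, 3 of 40 and 1 of 11 were activated, with 4.31% over all genes. Primed were 3, 1, 3 and 3, with 25.4% over all. Their distal shares were 13.4%, 11.7%, 12.2% and 13.9%, against 9.72% of all distal peaks. This matching did not include the distal state.

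The X chromosome held 842 H3K4me1 peaks, 4.92 per Mb, against 23.1 (chromosome 14) to 36.6 (chromosome 11) per Mb on autosomes. Of them 26.96% carried H3K27ac (95% interval 24.07 to 30.06), against 18.3% to 23.3% on autosomes. At distal peaks the order was reversed, with 6.90% of 493 on the X against 8.06% (chromosome 16) to 11.4% (chromosome 11) on autosomes. No interval was computed for these distal shares, and every autosome had at least 1290 distal peaks, so the X value is the least precise. Distal peaks were 493 of 842 on the X and 48604 of 69958 over all chromosomes, so the X share over all peaks includes more peaks near a TSS or on H3K4me3.

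Ranked by distal peaks alone, a ranking made after the values were seen, the genes with high shares included Aopep, an aminopeptidase, with 8 of 14 distal peaks activated, and Dcdc2c with 10 of 21. Aopep lies 532 kb from Fancc by 5′ ends, and Dcdc2c lies 1210 kb from Sox11, a SOX transcription factor gene. The H3K27ac peaks assigned to Dcdc2c numbered 17, although its own TSS carried neither H3K27ac nor H3K4me3. No contact data were used, so the gene that each of these peaks acts on was not tested.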
